A study of Mus musculus with 8 samples.

Results

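All genes whose symbol starts with Kcn, the gene symbols given to potassium channel subunits and some of their partner proteins, were taken from the count tables of single cells from the frontal isocortex of mice at postnatal day 7. There were 91 such genes among 17836 in the table of cells sorted for Drd1a-tdTomato (the D1Tom sort) and 81 among 15769 in the table of cells sorted for golli-τ-eGFP (the GTE sort), which made 91 of 18141 genes over both. By role in the D1Tom table they were 29 voltage-gated channels, 15 inward rectifiers, 12 tandem-pore leak channels (K2P), 10 silent subunits that act only beside other subunits, 8 channels of the calcium- or sodium-activated group, and 17 auxiliary subunits or regulators. Kcnu1 (SLO3) is counted in the calcium- or sodium-activated group by its family, not by what opens it. 68 of the 91 had at least 200 counts in the D1Tom sort and 31 of the 81 in the GTE sort, and only these are ordered by cell type; Kcnq1 (156 counts) and Kcnk13 (155 counts) are given in 1 type each. Members with few counts stay in the account as members: 7 in the D1Tom sort and 14 in the GTE sort had under 10 counts, and Kcne1 had none in the D1Tom table.

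Control mice carried a floxed Foxp2 gene on both chromosomes (Foxp2 flox/flox) and no Cre, and knockout mice (cKO) were Emx1-Cre; Foxp2 flox/flox. Each sort had 2 control and 2 cKO libraries, 8 in all, and the mice of each sort carried its reporter transgene, Drd1a-tdTomato (a BAC) or golli-τ-eGFP. Emx1-Cre acts in the lineage of cortical excitatory neurons and of glia made in the cortex, and leaves cortical interneurons, vessels and microglia largely untouched. In the D1Tom sort control 1, control 2 and cKO 1 were female and cKO 2 male, and libraries of the same number were prepared on the same day (batch 1 and batch 2); in the GTE sort control 1, control 2 and cKO 1 were male and cKO 2 female. The labels repeat the D1Tom batch text for the GTE libraries with sexes that do not match them, so no preparation day is taken for the GTE sort. The labels do not say how many animals made a library.

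Potassium channels let potassium ions leave or enter the cell and so set the resting voltage and end action potentials. Voltage-gated channels (Kcna, Kcnb, Kcnc, Kcnd, Kcnh, Kcnq) open on depolarisation, calcium-activated channels (Kcnma1, Kcnn) open on calcium entry, inward rectifiers (Kcnj) and K2P channels (Kcnk) hold the membrane near rest, and KChIP proteins (Kcnip) and beta subunits (Kcnab, Kcnmb, Kcne) tune them. In the cortex, astrocytes are known for Kcnj10 and Kcnj16, which take up potassium around active neurons, interneurons for fast Kcnc channels, and excitatory neurons for the Kcnq channels that carry the M current.

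The D1Tom libraries held 2395 to 3206 cells with 27323298 to 36379194 counts, and the GTE libraries 1440 to 3948 cells with 4878370 to 6092396 counts. The median count per cell was 7198 to 12815 in the D1Tom sort and 1085.5 to 2982 in the GTE sort, with the highest value in GTE cKO 1. Levels are given as CPM (a gene's count divided by all counts of the library, or of the cells of 1 type in it, on the standard scale); reads were counted at the 3′ end, so no scaling by gene length was applied, and levels are set side by side between cell types and libraries, not between genes. Cells were clustered without the Kcn genes and named from markers, which gave 11 types with at least 30 cells in every D1Tom library and 8 in every GTE library; every named type is called "-like". Cluster 6, the one cluster named upper layer-like, had 2 general excitatory markers and 1 of its own among its 10 leading genes, and is compared between genotypes by its number. The label of the sorts as neurons covers a part of the cells. The 7 neuron-like types, which leave out the unnamed clusters and neuroblast-like cells, held 20.7% to 46.1% of the cells in D1Tom libraries. Neuron-like types held 0.205% to 2.7% in GTE libraries, whose 4 largest clusters (0 to 3) did not meet the naming rule. Red blood cell markers summed to between 75.6 and 4903 CPM in the D1Tom libraries and between 0 and 5384 CPM in the GTE libraries, with control and cKO overlapping in both sorts. They were high in the unnamed cluster 1 of the D1Tom sort (9.22, 84610.0, 7267 and 19.6 CPM in control 1, control 2 and the 2 cKO libraries) and in the unnamed cluster 0 of the GTE sort (17094, 1.55, 0 and 20400.4 CPM in the same order). Pairs of libraries shared 1 to 27 cell barcodes. Types are built from expression, so differences between them are described with no test.

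Among the 11 larger types of the D1Tom sort, the summed Kcn level in controls was highest in Cajal-Retzius-like cells (2735 CPM ± 304, SD, n = 2), excitatory neuron-like cells of no given layer (2722 ± 109), layer 5 pyramidal tract-like cells (2576 ± 22.1) and layer 6 corticothalamic-like cells (2485 ± 51.9). Astrocyte-like cells had 1455 CPM ± 19.6 (n = 2), and of the smaller clusters the unnamed cluster 19 had 2578 ± 53.4 (n = 2) and endothelial-like cells, with 21 to 151 cells a library, had 654 ± 43.4 (n = 2). Of the 68 members with at least 200 counts, 14 had their highest control mean in layer 5 pyramidal tract-like cells, 13 in excitatory neuron-like cells, 9 in Cajal-Retzius-like cells, 8 each in layer 6 corticothalamic-like and medial interneuron-like cells, 5 each in astrocyte-like and caudal interneuron-like cells, 4 in oligodendrocyte precursor-like cells and 2 in dividing-like cells. For 15 of the 68, all 4 libraries of the highest type lay above all 4 of the next, against 15.2% of all 12790 genes with at least 200 counts. At least a 2-fold lead of the highest type over the next was seen in 11 of the 68 members, against 8.91% of those genes. These counts leave out types with under 30 cells in a library, in which some members were higher. Kcnj8 is so counted under layer 6 corticothalamic-like cells though it was higher in endothelial-like cells. Kcna5 is counted under medial interneuron-like cells though it was higher in cluster 19.

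**Figure D1:**
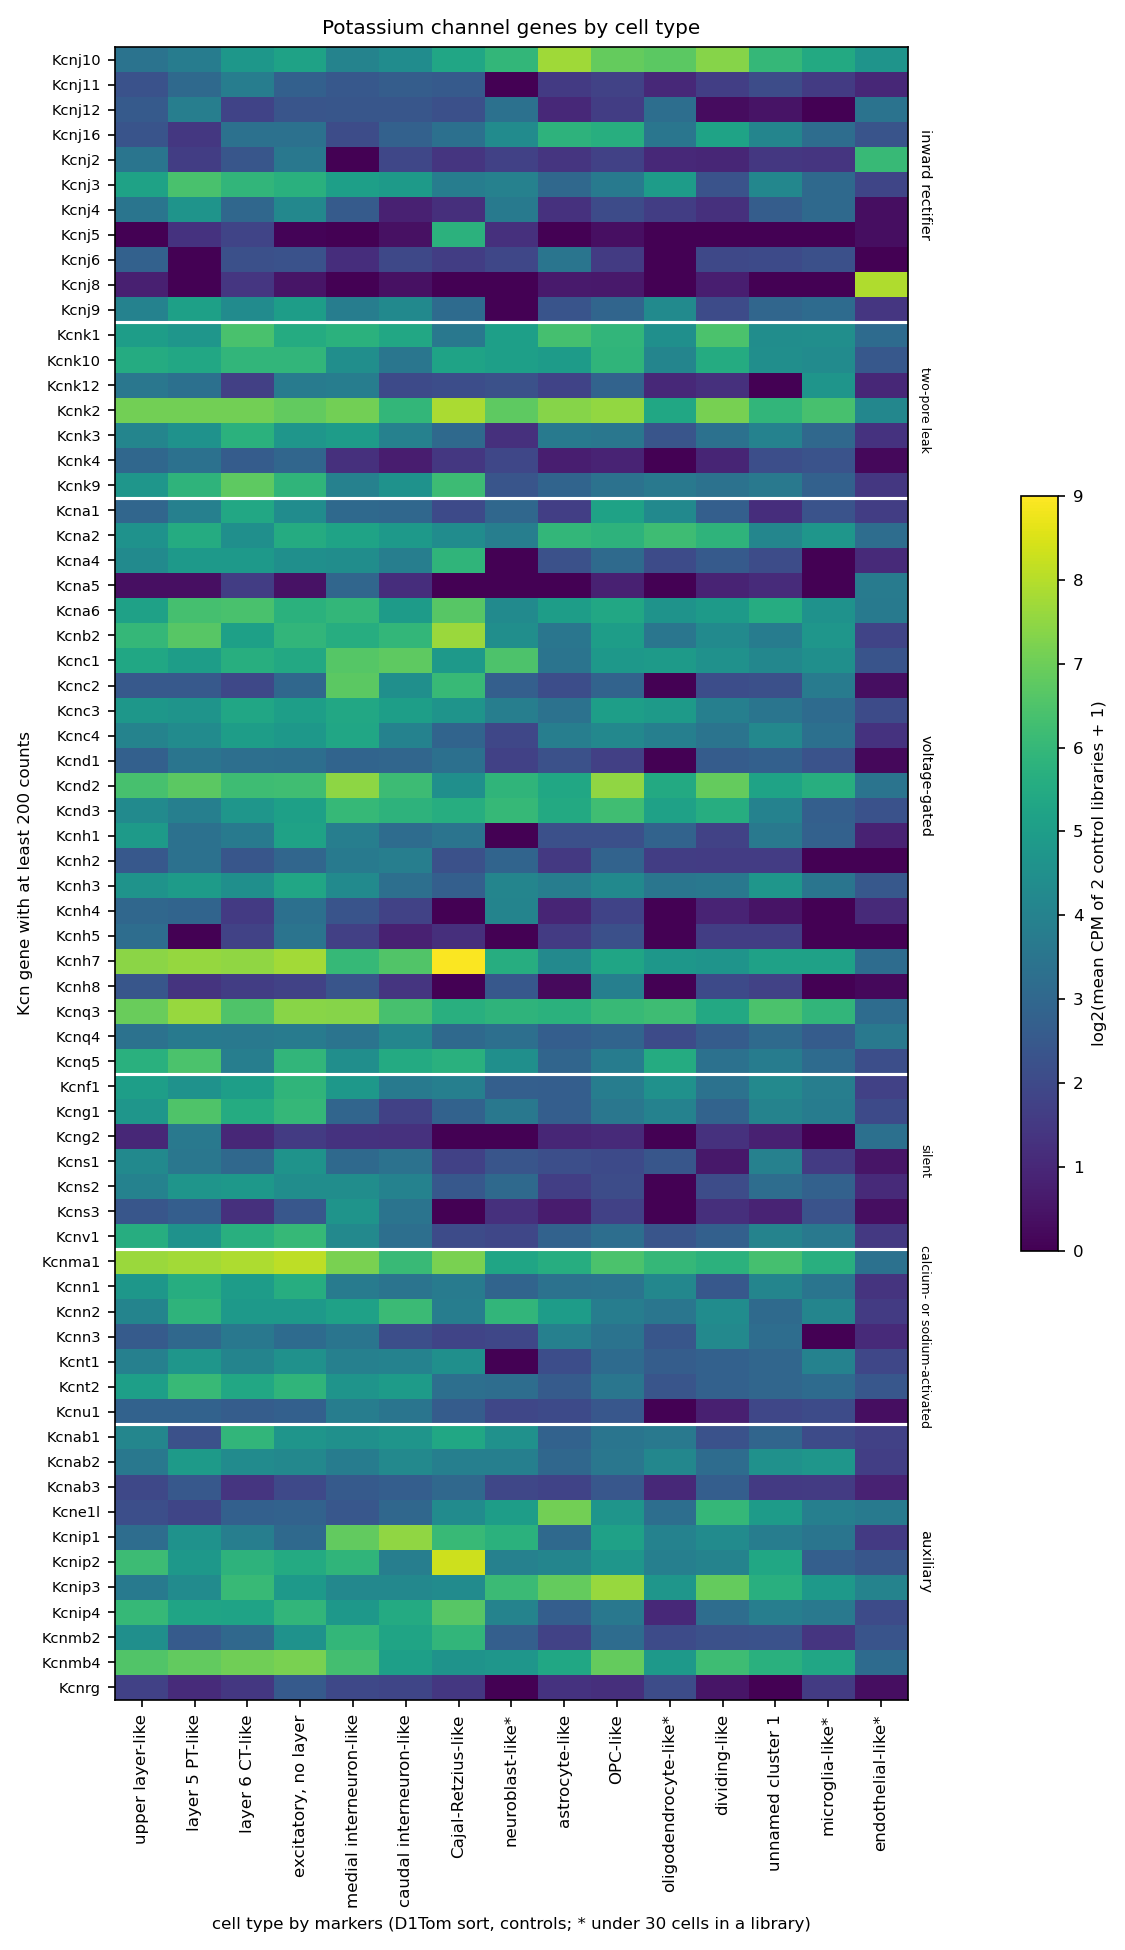
Levels of Kcn genes with at least 200 counts in the D1Tom sort (rows; some are not shown) by cell type (columns), as log2 of the mean CPM of the 2 control libraries plus 1; columns marked with an asterisk have under 30 cells in a library. Kcnh7 and Kcnip2 stand out in the Cajal-Retzius column, Kcnj10 in the astrocyte column and Kcnj8 in the endothelial column.

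Inward rectifiers were spread over glia, vessels and neurons. Kcnj10, the main potassium uptake channel of astrocytes, had 216, 199, 232 and 190 CPM in astrocyte-like cells of control 1, control 2, cKO 1 and cKO 2, in which order all D1Tom values below are given. In dividing-like cells Kcnj10 had 165, 162, 179 and 171 CPM, and in oligodendrocyte precursor-like cells 85.5, 145, 124 and 148 CPM. A part of both types also passed the astrocyte marker list, namely cluster 12 of the dividing-like cells and cluster 9 of the precursor-like cells. Cluster 9 held 26, 142, 75 and 235 cells in the libraries. The share of astrocyte RNA in these Kcnj10 values was not tested. All 4 astrocyte-like values lay above all 4 dividing-like values, and the control mean was lowest in upper layer-like cells (9.75 CPM). Kcnj16, which assembles with Kcnj10, had 73.4, 38.5, 53.0 and 47.1 CPM in astrocyte-like cells and 62.9, 35.6, 35.8 and 44.6 CPM in oligodendrocyte precursor-like cells. The astrocyte-like value was the higher one in each of the 4 libraries, though the ranges overlapped.

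Kcnj8, the pore of the vascular ATP-sensitive potassium channel, had 294, 185, 163 and 125 CPM in endothelial-like cells, a cluster that also carried mural markers. Its highest control mean among the 11 larger types was 1.65 CPM, in layer 6 corticothalamic-like cells. Abcc9, the sulfonylurea receptor that completes this channel and is no Kcn gene, had 246, 167, 135 and 166 CPM in the endothelial-like cells and at most 6.76 CPM as a control mean in another type. Kcnj2, a strong inward rectifier, had 67.9, 64.6, 62.7 and 56.4 CPM in the endothelial-like cells against a highest control mean of 11.2 CPM in the larger types. Kcnq1, a voltage-gated channel of epithelia and heart, had 19.8, 24.0, 15.2 and 18.8 CPM there.

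G-protein gated rectifiers split between neuron types. Kcnj5 had 65.0, 44.3, 76.3 and 19.9 CPM in Cajal-Retzius-like cells, where the next type, layer 6 corticothalamic-like, had a control mean of 2.62 CPM; no library of the 2 types overlapped. Kcnj3 had 80.5, 89.6, 72.9 and 74.6 CPM in layer 5 pyramidal tract-like cells, above all 4 layer 6 corticothalamic-like values of 48.6 to 62.9 CPM. Kcnj9 had 29.7, 37.1, 43.5 and 26.0 CPM in layer 5 pyramidal tract-like cells and 26.4, 35.4, 42.8 and 26.5 CPM in excitatory neuron-like cells, which overlapped. Kcnj6 had control means of 10.4 CPM in astrocyte-like cells and 5.86 CPM in upper layer-like cells, with the astrocyte-like value the higher one in 2 of 4 libraries. Among the other rectifiers, Kcnj12 had 15.4, 11.7, 6.74 and 10.8 CPM in layer 5 pyramidal tract-like cells against 4.79 CPM in upper layer-like controls, and Kcnj13, a channel of epithelia, had 33 counts in the whole sort.

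2 pairs of genes are shown by their promoters because the genes of each pair lie side by side on 1 chromosome, the first with different cell types at the top and the second with the same one. Kcnj9 (chromosome 1, 172320508 to 172329322, minus strand) and Kcnj10 (172341210 to 172374085, plus strand) point away from each other with 11888 bases between them. Kcnj8 (chromosome 6, 142564837 to 142571614) and Abcc9 (142587862 to 142702766) both lie on the minus strand. The 250 bases upstream of each start are given below 5′ to 3′ on the gene's strand, from RefSeq on GRCm38.p6, at chr1:172329323-172329572 (Kcnj9), chr1:172340960-172341209 (Kcnj10), chr6:142571615-142571864 (Kcnj8) and chr6:142702275-142702524 (Abcc9), with each CG pair in capitals; the Abcc9 start is that of the transcript in the promoter table and lies within the full span of the gene.
Kcnj9: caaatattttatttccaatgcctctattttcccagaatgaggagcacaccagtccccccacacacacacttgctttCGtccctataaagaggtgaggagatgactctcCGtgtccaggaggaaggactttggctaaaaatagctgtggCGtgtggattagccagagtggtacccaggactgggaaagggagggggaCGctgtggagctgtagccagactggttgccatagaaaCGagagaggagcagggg
Kcnj10: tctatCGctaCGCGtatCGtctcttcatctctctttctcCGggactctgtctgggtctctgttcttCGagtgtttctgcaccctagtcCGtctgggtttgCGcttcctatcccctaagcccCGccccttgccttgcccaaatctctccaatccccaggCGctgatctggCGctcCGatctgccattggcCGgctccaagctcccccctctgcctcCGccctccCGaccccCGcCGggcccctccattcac
Kcnj8: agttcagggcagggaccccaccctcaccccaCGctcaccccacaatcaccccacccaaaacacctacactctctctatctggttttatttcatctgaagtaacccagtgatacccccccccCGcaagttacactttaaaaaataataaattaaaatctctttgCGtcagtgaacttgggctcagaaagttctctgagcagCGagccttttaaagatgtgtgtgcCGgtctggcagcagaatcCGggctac
Abcc9: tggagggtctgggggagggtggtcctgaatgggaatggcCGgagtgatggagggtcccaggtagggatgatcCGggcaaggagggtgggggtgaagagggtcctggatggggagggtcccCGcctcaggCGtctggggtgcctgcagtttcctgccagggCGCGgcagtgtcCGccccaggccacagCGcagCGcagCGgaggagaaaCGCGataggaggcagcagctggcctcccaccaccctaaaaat
The letters CG, which read the same on both strands, occurred 5 times in the Kcnj9 window and 17 times in the Kcnj10 window; 44.5% and 76.4% of all 27025 promoter windows of that length held fewer. They occurred 6 times for Kcnj8 and 12 times for Abcc9, with 49.5% and 66.2% of windows below. GC content was 52.0% for Kcnj9, 62.0% for Kcnj10, 49.2% for Kcnj8 and 66.8% for Abcc9. Of the Kcn genes, 66 had a promoter in the table, with a median of 8.5 CG pairs against 6 for all genes, and 34.8% of them against 27.5% of all had at least 15. These are letters of the sequence; no methylation or binding was measured.

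Further neighbours among the Kcn genes also had different types at the top. Within 100000 bases lay 8 pairs, 1 of which (Kcnip1 and Kcnmb1 on chromosome 11) overlapped, so that their counts are uncertain. In 3 pairs both genes had at least 200 counts and in none of the 3 was the highest type shared. Except for Kcnj10, the libraries of the highest and the next type overlapped in each gene of these pairs. How often other pairs of Kcn genes share a highest type was not counted, so no link to position is drawn. Besides Kcnj9 and Kcnj10 these were Kcnj16 and Kcnj2 (chromosome 11, 38196 bases between them) and Kcna1 and Kcna6 (chromosome 6, 62527 bases). Kcna1, which acts in axons, had 50.3, 32.2, 35.8 and 26.3 CPM in layer 6 corticothalamic-like cells and 53.5, 16.6, 27.8 and 8.22 CPM in oligodendrocyte precursor-like cells. Kcna6 had 105, 93.8, 137 and 89.0 CPM in Cajal-Retzius-like cells and 84.9, 85.3, 102 and 83.6 CPM in layer 6 corticothalamic-like cells, so the Cajal-Retzius-like value was the higher one in each library.

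**Figure D2:**
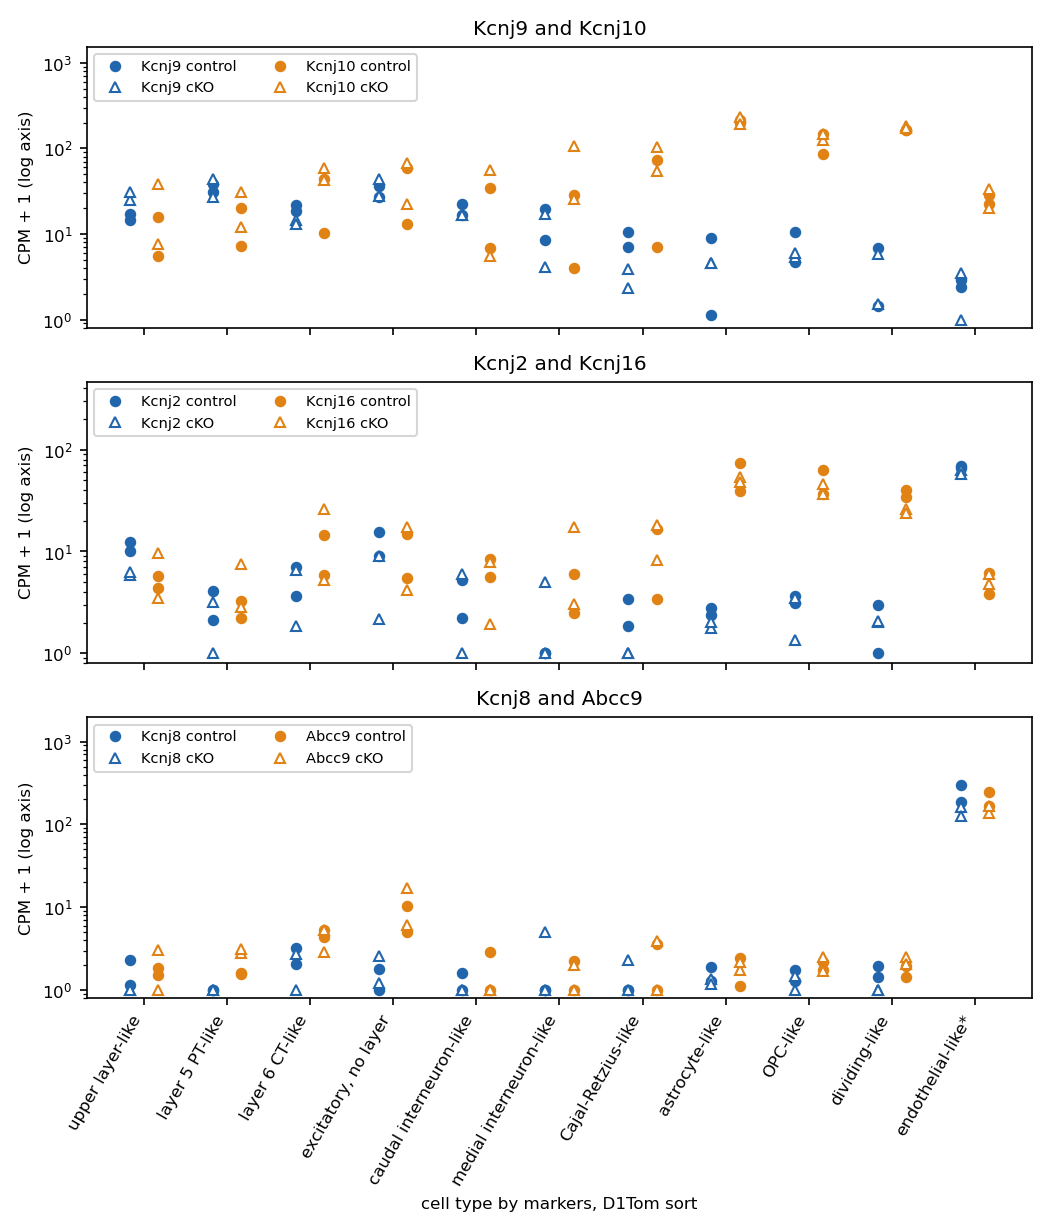
CPM plus 1 on a log axis in each D1Tom library (circles control, triangles cKO) by cell type for 3 pairs of neighbouring genes, 2 of Kcn genes and the third of Kcnj8 and Abcc9. Kcnj10 peaks in astrocyte-like cells and Kcnj9 in layer 5 pyramidal tract-like cells, with 11888 bases between the genes.

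K2P leak channels were spread over neurons and glia. Kcnk2, opened by stretch and lipids, had 254, 202, 246 and 152 CPM in Cajal-Retzius-like cells, 204, 171, 211 and 158 CPM in oligodendrocyte precursor-like cells and 203, 128, 234 and 162 CPM in astrocyte-like cells. These ranges overlapped, and an unnamed cluster (19) with 25 to 73 cells a library had 294, 212, 315 and 253 CPM of Kcnk2. The acid-sensitive channels were highest in layer 6 corticothalamic-like cells: Kcnk9 had 110, 106, 83.6 and 93.9 CPM and Kcnk3 59.2, 46.7, 72.5 and 31.9 CPM. Kcnk1 had its 3 highest control means in dividing-like (86.8 CPM), layer 6 corticothalamic-like (84.5) and astrocyte-like cells (81.0), but its astrocyte-like values were 112, 50.4, 52.8 and 52.0 CPM, with control 1 apart from the others. Kcnk13, known from microglia, had 25.4, 7.92, 8.39 and 21.4 CPM in microglia-like cells, a type of 17 to 47 cells a library.

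Cajal-Retzius-like cells, the early-born neurons of layer 1, led several voltage-gated members. Kcnh7, of the ERG family, had 573, 419, 419 and 308 CPM there against a control mean of 217 CPM in excitatory neuron-like cells, with no overlap of the 4 libraries. Kcnb2, a delayed rectifier, had 217, 181, 255 and 133 CPM against 101 CPM in layer 5 pyramidal tract-like controls, also without overlap. Kcna4, an A-type channel, had 67.5, 48.6, 46.1 and 38.5 CPM against 27.7 CPM in layer 5 pyramidal tract-like controls. Kcnip2, a KChIP, had 455, 178, 363 and 128 CPM against 71.6 CPM in upper layer-like controls; both batch 1 libraries were above both batch 2 libraries. Kcnip4 had 130, 72.1, 107 and 66.4 CPM in these cells, with the batch 1 libraries again the higher ones.

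**Figure D3:**
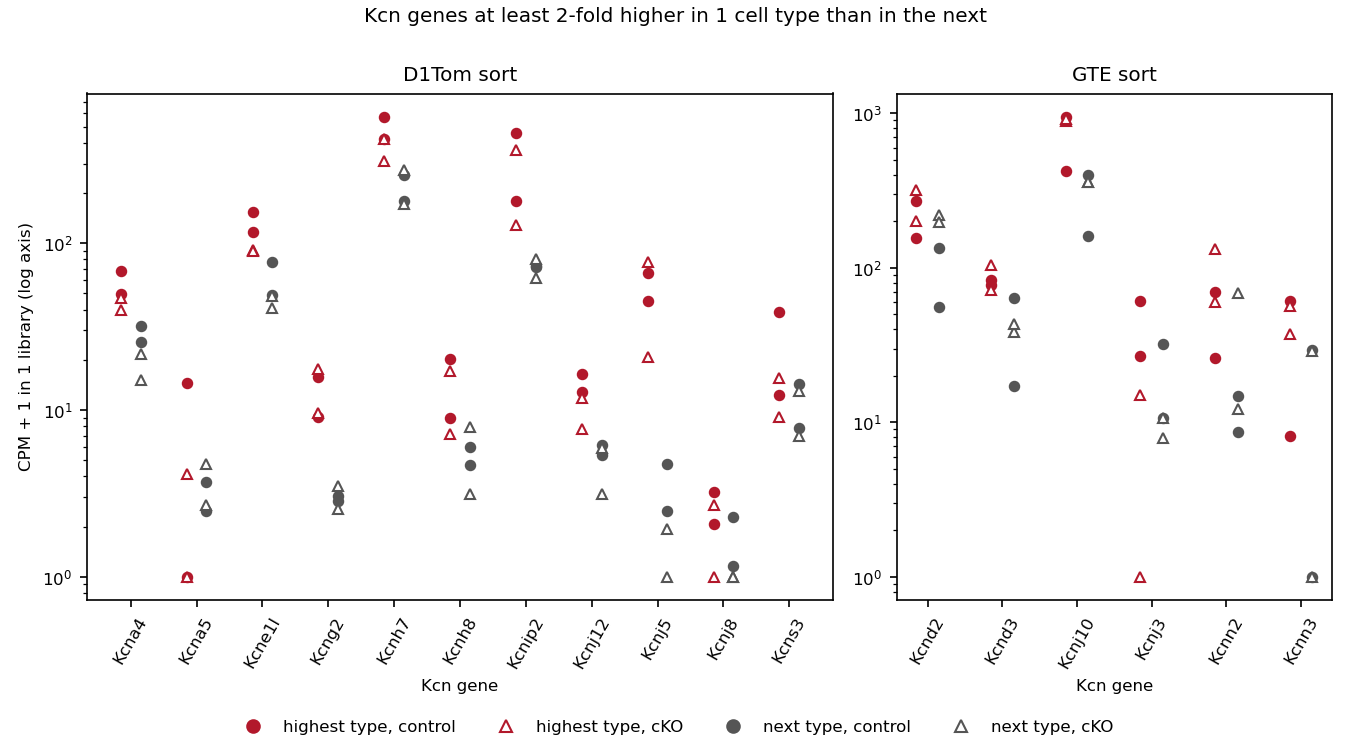
CPM plus 1 on a log axis in each library (circles control, triangles cKO) for the Kcn genes whose control mean in the highest cell type (red) was at least 2 times that in the next (grey), 11 in the D1Tom sort and 6 in the GTE sort. In Kcnh7 and Kcnj5 no library of the next type reaches the highest type, while Kcna5 and Kcnj8 rest on low values among the types shown.

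Interneuron-like cells led the fast channels. Kcnc1 had 128, 89.0, 113 and 66.5 CPM in caudal interneuron-like cells and a control mean of 96.8 CPM in medial interneuron-like cells. Kcnc2 had 143, 66.5, 108 and 85.1 CPM in medial interneuron-like cells and 62.6, 67.7, 72.0 and 55.8 CPM in Cajal-Retzius-like cells, with control 2 the single library in which the order turned. Kcns3, a silent partner of Kcnb channels, had 37.7, 11.3, 14.5 and 8.10 CPM in medial interneuron-like cells, above the caudal interneuron-like value in each library. Kcnip1 had 195, 166, 192 and 146 CPM in caudal interneuron-like cells and 99.5, 127, 118 and 118 CPM in medial interneuron-like cells, without overlap. Kcnn2, an SK channel that follows calcium entry, had 81.0, 57.5, 77.8 and 48.6 CPM in caudal interneuron-like cells, above layer 5 pyramidal tract-like cells (control mean 56.7 CPM) in each library.

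Excitatory types led Kcnq3 and Kcnq5, which carry M current, the large-conductance calcium-activated channel and most silent subunits. Kcnq3 had 188, 200, 208 and 221 CPM in layer 5 pyramidal tract-like cells and Kcnq5 87.4, 84.0, 104 and 87.6 CPM, the second without overlap with excitatory neuron-like cells (40.5 to 68.9 CPM). Kcnma1, the pore of the large-conductance channel, had 273, 270, 302 and 252 CPM in excitatory neuron-like cells, and its beta subunit Kcnmb4 had 159, 132, 169 and 130 CPM. The unnamed cluster 19 had more Kcnmb4, with 218, 195, 289 and 205 CPM. The sodium-activated channels Kcnt1 and Kcnt2 had their highest control means, 25.6 and 66.3 CPM, in layer 5 pyramidal tract-like cells. Among silent subunits, Kcng1 had 99.3, 80.9, 113 and 90.8 CPM in layer 5 pyramidal tract-like cells, Kcnf1 had 52.0, 64.2, 73.8 and 52.5 CPM and Kcnv1 75.6, 52.3, 65.9 and 61.5 CPM in excitatory neuron-like cells, and Kcng2 had 14.8, 8.03, 16.5 and 8.65 CPM in layer 5 pyramidal tract-like cells against 1.95 CPM in excitatory neuron-like controls. Of the Kv beta subunits, Kcnab2 had its highest control mean (29.2 CPM) in layer 5 pyramidal tract-like cells, and Kcnab1 had 99.5 CPM in cluster 19 and 59.8 CPM in layer 6 corticothalamic-like cells.

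Glial types led a few A-type members and accessory genes. Kcnd2, an A-type channel, had 209, 156, 198 and 129 CPM in oligodendrocyte precursor-like cells and 193, 163, 179 and 97.2 CPM in medial interneuron-like cells, which overlapped. Kcnd3 had 82.1, 65.6, 79.4 and 61.2 CPM in oligodendrocyte precursor-like cells, above the medial interneuron-like value in each library. Kcnip3, a KChIP that also binds DNA, had 279, 111, 208 and 120 CPM in the precursor-like cells against 143, 89.4, 114 and 90.2 CPM in astrocyte-like cells. Kcnh8 had 19.2, 8.02, 16.2 and 6.22 CPM in the precursor-like cells, against 4.34 CPM in upper layer-like controls. Kcne1l, an accessory gene on the X chromosome, had 152, 115, 90.1 and 88.4 CPM in astrocyte-like cells against 62.0 CPM in dividing-like controls. Kcna2, an axonal channel, had near-equal control means in astrocyte-like (61.1 CPM), dividing-like (56.7) and oligodendrocyte precursor-like cells (55.9). The 2-fold lead of Kcna5 in medial interneuron-like cells rested on control 1 (13.6 CPM; 0 in control 2).

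The 2-fold lead moved with the choice of control library. Without control 1 it held in 7 of the 68 members, 6 of them among the 11, and without control 2 in 14, all 11 among them. Kcna4, Kcna5, Kcnh8, Kcnj8 and Kcns3 lost it without control 1.

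In the GTE sort, whose libraries are shallower and whose levels are not set against those of the D1Tom table, 11 of the 31 members with at least 200 counts were highest in oligodendrocyte precursor-like cells and 8 in astrocyte-like cells. For 3 of the 31 the 4 libraries of the highest type lay above those of the next, against 5.92% of all 8806 genes with at least 200 counts, and 6 had the 2-fold lead, against 10.7%. Kcnj10 had 422, 954, 892 and 917 CPM in astrocyte-like cells of control 1, control 2, cKO 1 and cKO 2 and 161, 398, 361 and 359 CPM in oligodendrocyte precursor-like cells. Control 1 was the lowest library in both types, and the types did not overlap. Kcnn2 had 25.2, 68.5, 132 and 58.9 CPM and Kcnn3 7.21, 60.1, 55.4 and 36.5 CPM in astrocyte-like cells, both SK channels with control 1 lowest. Kcnk2 had 128, 121, 147 and 139 CPM in astrocyte-like cells, all above the oligodendrocyte precursor-like values of 88.8 to 112 CPM. Kcnd2 had 156, 269, 318 and 199 CPM and Kcnd3 76.8, 82.3, 71.4 and 104 CPM in oligodendrocyte precursor-like cells; Kcnd3 did not overlap with astrocyte-like cells. Kcnj3 had 59.95, 25.8, 14.0 and 0 CPM in committed oligodendrocyte precursor-like cells, a type with 37 and 45 cells in the controls. Kcnj10, Kcnd3 and Kcnk2 were thus the members without overlap in this sort, and Kcnj10 was highest in astrocyte-like cells, and Kcnd2 and Kcnd3 in oligodendrocyte precursor-like cells, in both sorts.

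The second comparison asked whether loss of Foxp2 was accompanied by other Kcn levels. Foxp2 itself had 36.3 and 39.1 CPM in D1Tom controls and 26.5 and 19.4 CPM in cKO libraries, which did not overlap (log2 difference of cKO over control −0.67, SE 0.16, edgeR adjusted p = 0.998). In the GTE sort it had 9.52 and 46.9 CPM in controls and 25.4 and 7.43 CPM in cKO libraries, which overlapped. The deleted exons are not stated in the labels, and counts at the 3′ end may lie outside them, so these values do not check the deletion; the GTE directions below are those of the libraries labelled control and cKO. In summed libraries, fewer cells of a type and less RNA per cell cannot be told apart.

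No Kcn gene passed the adjusted threshold of 0.05 over all cells of the D1Tom sort. Of 80 members tested, 28 were higher and 52 lower in cKO, with a median log2 difference of −0.13 against −0.01 for all 14508 genes, and none had an unadjusted p under 0.05 (background 2.21%; called by edgeR: 0 of 14508, 0%). With the replicate block, which pairs libraries of 1 preparation day, 10 of the 80 had an unadjusted p under 0.05 against 9.25% of all genes, 3 higher and 7 lower; the smallest edgeR adjusted p was 0.232, of Kcnj8 (log2 −1.10, SE 0.16). DESeq2 called 0 of the 90 members it tested, 1 of them with an unadjusted p under 0.05. Both cKO libraries lay above both controls in 4 members (9.7% of all genes) and below in 16 (13.7%). Within the 2 batches, 42 of the 80 had the same direction in both. By role the median difference was −0.23 for 8 silent subunits, −0.19 for 13 inward rectifiers, −0.11 for 14 auxiliary genes and −0.09 for 10 K2P channels. It was −0.09 for 27 voltage-gated channels and −0.05 for the 8 channels of the calcium- or sodium-activated group. Without cKO 2 the median of all members was 0.00, with 41 higher and 40 lower. Without cKO 1 it was −0.25, with 28 higher and 54 lower. In that fit 8 of 82 members had an unadjusted p under 0.05 (background 3.73%). The fit leaves 1 cKO library, which was assumed to vary like the controls, so no conclusion is drawn from this count.

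**Figure D4:**
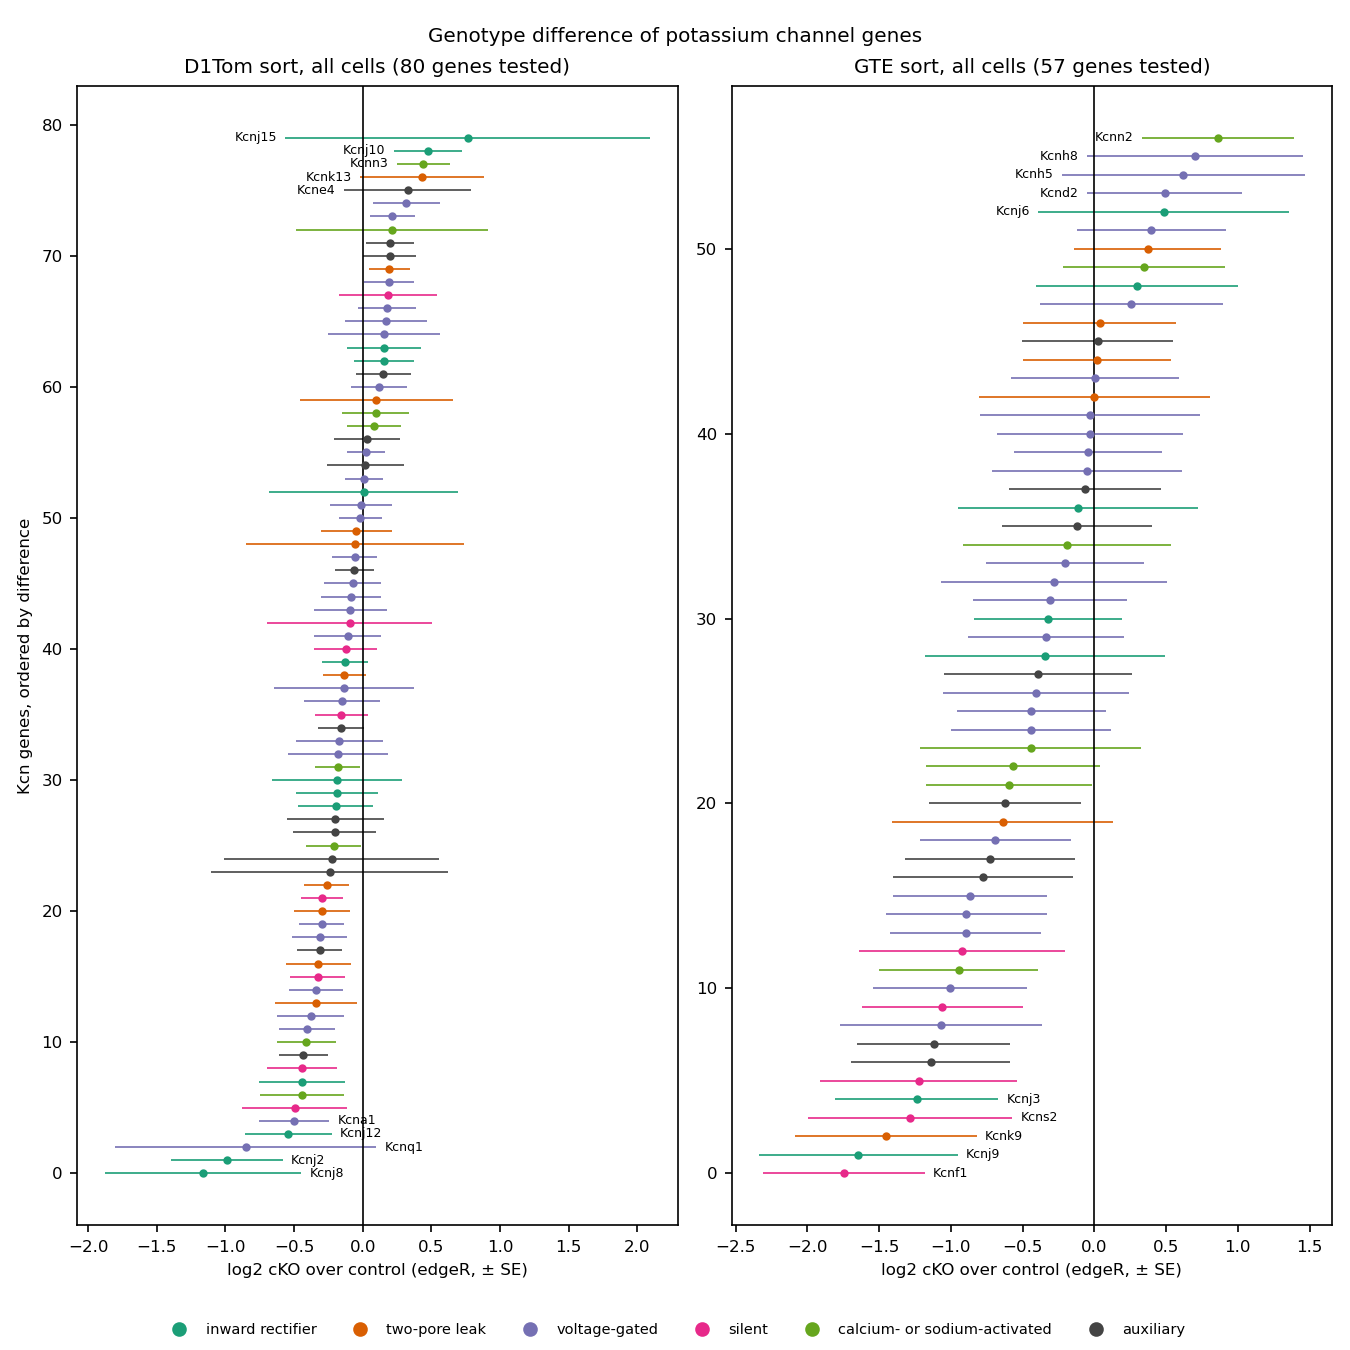
Log2 difference of cKO over control with its SE (edgeR, counts summed over all cells of a library) for the 80 Kcn genes tested in the D1Tom sort and the 57 tested in the GTE sort, ordered by difference and coloured by role. No point passed the adjusted threshold; 52 of 80 and 42 of 57 lie left of 0.

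The smallest p-values in the D1Tom sort belonged to 5 members. Kcnip4 had 34.7 and 32.9 CPM in controls and 29.3 and 19.2 CPM in cKO (log2 −0.43, SE 0.18). Kcnj2 had 6.82 and 10.4 CPM against 3.15 and 5.09 CPM (log2 −0.99, SE 0.41), lower by 0.91 on the log2(CPM + 1) scale in each batch. Kcna1 had 14.8 and 10.6 CPM against 10.9 and 6.51 CPM, which overlapped. Kcna4 had 13.6 and 15.7 CPM against 12.48 and 8.89 CPM, and Kcnn3 had 8.60 and 8.56 CPM against 10.99 and 11.3 CPM, the member of the 5 that was higher in cKO. The edgeR adjusted p of all 5 was 0.998. Kcnj10 had 68.2 and 82.4 CPM in controls and 86.3 and 112 CPM in cKO (log2 0.47, SE 0.25, edgeR adjusted p = 0.998).

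Cell composition also differed between the libraries. The summed Kcn level over all cells was 1981 and 1915 CPM in controls and 1982 and 1613 CPM in cKO, which overlapped. The 7 neuron-like types held 55.8% and 52.8% of the counts in D1Tom controls and 45.7% and 27.5% in cKO libraries. Neuroblast-like cells, which carry Dlx1, Dlx2 and Sp9 beside genes of dividing cells, numbered 29 and 30 in controls and 208 and 205 in cKO, and the unnamed cluster 1 held 208 and 56 cells against 337 and 471. The summed Kcn level in controls was 1293 CPM in the first and 1157 CPM in the second, against 1948 CPM over all cells. Cajal-Retzius-like cells, highest of the larger types for Kcnip4, held 2.28% and 3.20% of the counts in controls and 2.35% and 2.75% in cKO. Excitatory neuron-like cells, highest of the larger types for Kcnj2, held 14.8% and 20.4% against 14.9% and 9.41%. Both overlapped. Cluster 6 (upper layer-like) cells, which are second of the larger types for both genes, held 16.3% and 12.8% against 8.29% and 3.42%. Within cluster 6 Kcnj2 was also lower in cKO, with values given below. The 6 general excitatory markers summed to 793 and 825 CPM against 679 and 474 CPM, and 3 of them did not overlap between the genotypes. The 8 astrocyte markers summed to 3148 and 3242 CPM in controls and 3447 and 4492 CPM in cKO, with 5 of 8 not overlapping, in the direction of Kcnj10. The 6 endothelial markers, the cells highest in Kcnj2, summed to 111 and 460 CPM in controls and 65.3 and 233 CPM in cKO; none of these markers was at 0 in every library. The part of composition in the Kcn differences was not tested.

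In the GTE sort 57 members were tested, of which 15 were higher and 42 lower in cKO, with a median log2 difference of −0.34 against −0.05 for all 12042 genes. None passed the adjusted threshold (edgeR called 4 of 12042 genes, 0.0332%), and 6 had an unadjusted p under 0.05 (background 5.22%), all of them lower in cKO; DESeq2 called 0 members, 1 with an unadjusted p under 0.05. Both cKO libraries lay above both controls in 5 members (19.6% of all genes) and below in 8 (6.67%). With library totals in place of TMM scaling the median of all genes moved to 0.38 and that of the Kcn genes to −0.02, with 28 higher and 29 lower. The 6 members were Kcnf1, Kcnj9, Kcnk9, Kcnj3, Kcnip2 and Kcnip4. Kcnf1, a silent subunit, had 13.6 and 34.8 CPM in controls and 6.11 and 10.4 CPM in cKO (log2 −1.75, SE 0.56, edgeR adjusted p = 0.662). Kcnj9 had 4.596 and 10.7 CPM in controls and 1.38 and 4.07 CPM in cKO, a log2 difference of −1.65 (SE 0.69; edgeR adjusted p = 0.887). Kcnip2 had 39.1 and 38.5 CPM against 14.0 and 28.6 CPM, and Kcnip4 had 14.4 and 19.1 CPM against 8.88 and 10.1 CPM; neither overlapped. Kcnk9 (4.10 and 15.8 against 4.14 and 4.42 CPM) and Kcnj3 (5.91 and 27.7 against 10.8 and 6.72 CPM) overlapped, with control 2 apart.

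GTE cKO 1 stood apart in what it held. Astrocyte-like and oligodendrocyte precursor-like cells gave 32.0% and 24.6% of its counts, against 9.11% to 17.1% and 6.84% to 10.2% in the other libraries. The unnamed cluster 1 gave 8.48% against 25.2% to 40.5%, with 31.4% in cKO 2. Kcnf1 had its highest control mean there (35.8 CPM), near that of cluster 3 (33.7 CPM). Within cluster 1 Kcnf1 had 18.6 and 52.9 CPM in controls and 6.98 and 19.1 CPM in cKO, which overlapped. The part of composition in the Kcnf1 difference was not tested. The 6 general excitatory markers summed to 291 and 393 CPM in GTE controls and 121 and 278 CPM in cKO, with 4 of 6 not overlapping. Without cKO 1, 30 members were higher and 31 lower with a median of −0.02. Without cKO 2, 14 were higher and 46 lower with a median of −0.68. The median was −0.45 without control 1 (19 higher, 41 lower) and −0.07 without control 2 (26 higher, 36 lower).

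The difference between the sorts was tested as an interaction in 1 fit of all 8 libraries. No Kcn gene of 75 tested passed (edgeR called 0 of 14026 genes, 0%). 1 had an unadjusted p under 0.05 (background 3.22%): Kcnf1, more negative in the GTE sort (log2 −1.62, SE 0.66, edgeR adjusted p = 0.941). Sort, litter and preparation day cannot be told apart here.

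Within cell types no Kcn gene passed the adjusted threshold in any of the 11 D1Tom or 8 GTE types (edgeR called 0.0133% of genes in GTE oligodendrocyte precursor-like cells and 0% in each other type). In layer 6 corticothalamic-like cells, the type that normally makes Foxp2, 49 members were tested and 1, Kcnip2, had an unadjusted p under 0.05 (background 3.18%); with the replicate block 4 had (background 8.68%), with Kcnj10, Kcnd3 and Kcne1l beside it, all 3 higher in cKO. Kcnip2 had 59.6 and 49.9 CPM in controls, both above the 33.3 and 27.2 CPM of cKO (log2 difference −0.88, SE 0.25; adjusted p of edgeR 0.999). Kcne1l, the next by p in this type, had 5.22 and 6.44 CPM against 10.2 and 16.0 CPM. Both cKO libraries lay above both controls in 6 members and below in 8 (15.8% and 14.0% of all genes in this type).

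Layer 5 pyramidal tract-like cells had 4 members of 52 with an unadjusted p under 0.05 (background 3.35%), and 4 with the replicate block (5.68%). Kcnt1 had 17.1 and 34.0 CPM in controls and 57.0 and 42.2 CPM in cKO (log2 0.96, SE 0.32, edgeR adjusted p = 0.995). Without control 2 the log2 difference of Kcnt1 was 1.52. That fit leaves 1 control library, so no conclusion is drawn from it. Kcnk9 had 62.2 and 51.3 CPM against 103 and 64.9 CPM, Kcna4 24.6 and 30.9 CPM against 14.1 and 20.5 CPM, and Kcnn1 53.1 and 42.0 CPM against 35.5 and 25.9 CPM, none with overlap. Both cKO libraries lay above both controls in 14 of the 52 members (17.8% of all genes) and below in 5 (14.2%).

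Cluster 6 had 3 members of 64 with an unadjusted p under 0.05 (background 2.92%), and 7 with the replicate block (7.34%), 6 of them higher in cKO. Kcnj9 had 13.7 and 16.2 CPM in controls and 24.1 and 29.9 CPM in cKO (log2 0.80, SE 0.27), and Kcnj2 had 11.3 and 9.10 CPM against 4.91 and 5.35 CPM (log2 −1.04, SE 0.42). Kcnk9 was the third (log2 0.47).

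In the other D1Tom types the smallest p-values were as follows. Excitatory neuron-like cells had Kcnh3, an ELK channel, at 39.6 and 38.8 CPM in controls and 54.9 and 51.7 CPM in cKO (log2 0.44, SE 0.18; background of unadjusted p under 0.05: 0.447%), and Kcnj2 at 14.5 and 7.92 CPM against 7.98 and 1.17 CPM. Caudal interneuron-like cells had Kcnh2, the ERG channel of the heart, at 13.1 and 13.6 CPM against 5.07 and 4.96 CPM (log2 −1.39, SE 0.47; background 0.841%), and Kcnj12 at 6.86 and 1.85 CPM against 12.0 and 8.93 CPM. Astrocyte-like cells had Kcne1l at 152 and 115 CPM against 90.1 and 88.4 CPM (log2 −0.54, SE 0.23), and Kcnn3 at 15.1 and 13.2 CPM against 28.7 and 16.8 CPM. Kcnj10 in the same astrocyte-like cells had 216 and 199 CPM against 232 and 190 CPM, which overlapped. Dividing-like cells had Kcnj16 at 33.6 and 39.3 CPM against 25.0 and 23.0 CPM, and Kcnk1, which overlapped. Oligodendrocyte precursor-like cells had Kcnh2 at 7.91 and 4.75 CPM against 2.89 and 2.74 CPM, and Kcna1 at 53.5 and 16.6 CPM against 27.8 and 8.22 CPM, which overlapped. Without control 2, which leaves 1 control library, the Kcna1 difference was −1.53, and no conclusion is drawn from that fit. Cajal-Retzius-like cells had Kcnq5 at 62.6 and 39.9 CPM against 30.2 and 30.6 CPM and Kcnj3 at 10.8 and 15.6 CPM against 33.1 and 18.6 CPM. The unnamed cluster 1, rich in haemoglobin RNA in control 2 and cKO 1, had Kcnh7 at 33.0 and 36.8 CPM against 26.9 and 19.2 CPM and Kcnh3 at 28.4 and 22.8 CPM against 36.5 and 37.7 CPM. Of all these, Kcnh3 in excitatory neuron-like cells and Kcnh2 in caudal interneuron-like cells had an unadjusted p under 0.05, and none passed the edgeR adjusted threshold. With the replicate block an unadjusted p under 0.05 was seen in 6 of 57 members in astrocyte-like cells (background 5.2%), 4 of 65 in excitatory neuron-like (5.33%), 3 of 42 in dividing-like (8.37%), 2 of 37 in Cajal-Retzius-like (6.27%) and 2 of 52 in caudal interneuron-like cells (3.49%). It was 1 each in oligodendrocyte precursor-like cells (4.5%) and the unnamed cluster 1 (3.55%).

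Medial interneuron-like cells gave the single call that depended on the treatment of batches. Kcnj10 had 3.01 and 27.6 CPM in the controls of batches 1 and 2 and 24.9 and 105 CPM in the cKO libraries of batches 1 and 2, so the genotypes overlapped and batch 2 was the higher one within each genotype (log2 1.75, SE 0.83, edgeR adjusted p = 1.00). With the replicate number as a block the log2 difference was 2.13 with an edgeR adjusted p of 0.00482. Kcnj10 was the 1 of 41 members with an unadjusted p under 0.05 in that fit (background 7.13%), which called 31 of 8601 genes. Without cKO 1 the difference was 2.66 and without control 2 it was 4.10. In the fits without control 2 the log2 difference of Kcnj10 was 2.42 in layer 6 corticothalamic-like cells and 3.70 in Cajal-Retzius-like cells. Each of these fits leaves 1 library in a group, and the batches are then unequal between the genotypes. No conclusion is drawn from them. The 8 astrocyte markers summed in the medial interneuron-like cells to 276, 1357, 429 and 2945 CPM. They were again higher in batch 2, and in the order of Kcnj10 for control 1 (lowest) and cKO 2 (highest). No astrocyte marker of the 8 was at 0 in every library. The same order of batches within each genotype held for Kcnj10 in all 7 neuron-like types, from 4.55 against 14.9 CPM in controls and 6.55 against 37.4 CPM in cKO for cluster 6. The part of RNA from astrocytes in the Kcnj10 difference was not tested. Kcns2, the other member named in this type, had 22.6 and 17.6 CPM in controls against 7.27 and 16.2 CPM in cKO.

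**Figure D5:**
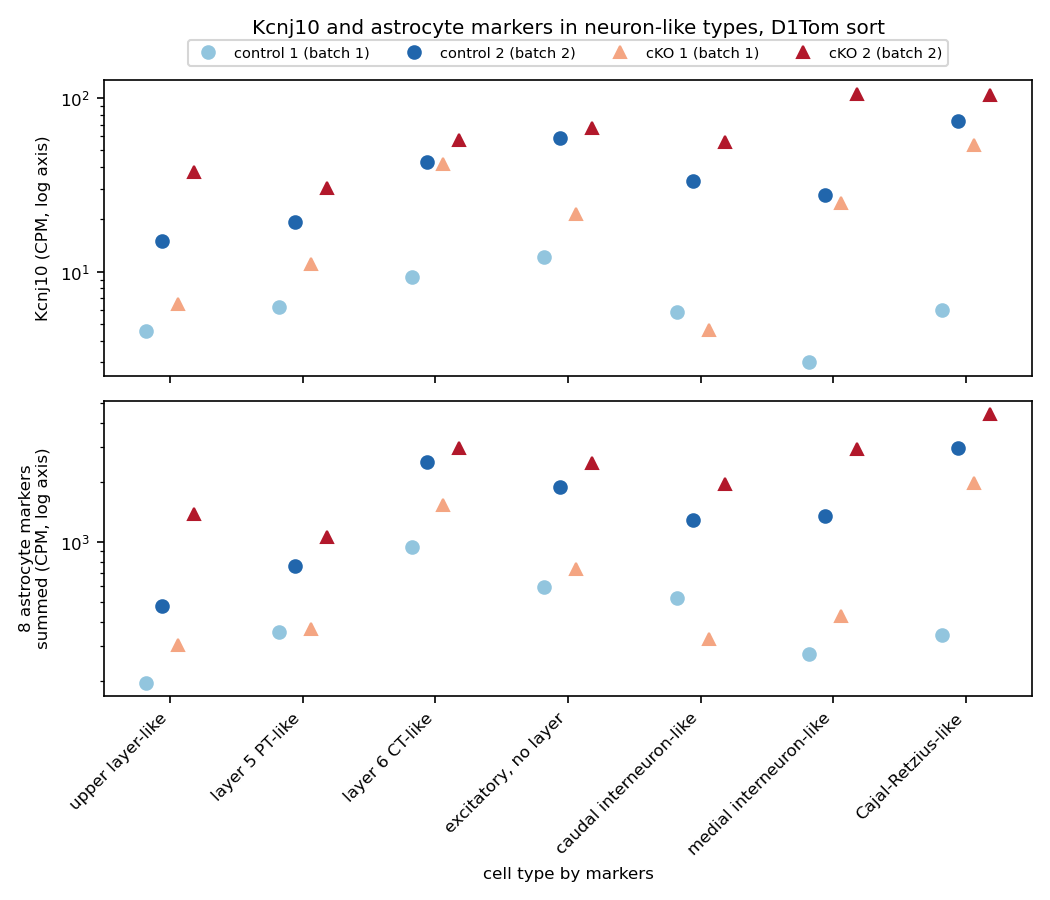
Kcnj10 CPM (top) and the summed CPM of 8 astrocyte markers (bottom), each on a log axis, in every D1Tom library for the 7 neuron-like types (circles control, triangles cKO, batch in the legend). In each type and genotype the batch 2 library lies above the batch 1 library in both panels.

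Among GTE types, 4 members had an unadjusted p under 0.05 in a fit. Kcnq3 had 48.7 and 90.1 CPM in astrocyte-like controls and 16.0 and 36.5 CPM in cKO (log2 −1.56, SE 0.56; background 2.39%), with Kcnip2 next at 19.8 and 18.0 CPM against 6.15 and 9.43 CPM. Kcnma1 had 84.0 and 140 CPM in oligodendrocyte precursor-like controls and 69.0 and 55.4 CPM in cKO (log2 −0.98, SE 0.49; background 2.8%), with Kcnip4 next at 21.6 and 22.2 CPM against 11.2 and 8.66 CPM. Kcnn2 had 1.09 and 9.68 CPM against 74.5 and 16.9 CPM in the unnamed cluster 2 and Kcnk10 had 6.52 and 14.5 CPM against 83.8 and 29.1 CPM (background 2.3%), with cKO 1, which had 39 cells there, apart from the others. Dividing-like cells had Kcnd2 at 54.4 and 133 CPM against 219 and 197 CPM and Kcnq3 at 45.4 and 66.3 CPM against 31.6 and 28.2 CPM. In the unnamed clusters 0, 1 and 3 the genes with the smallest p were Kcnd2 and Kcnip3, Kcnf1 and Kcnn2, and Kcnip3 and Kcna2. In cluster 0, Kcnd2 had 25.6 and 26.4 CPM in the controls, 240 CPM in cKO 1 and 18.2 CPM in cKO 2, a difference that lay in cKO 1, which had 38 cells there. The log2 difference of Kcnd2 was −0.29 without that library and 2.27 without cKO 2. Committed oligodendrocyte precursor-like cells allowed a test of Kcnj10 only, with 0 and 258 CPM in controls and 359 and 187 CPM in cKO.

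Genes whose proteins join or neighbour potassium channels in the membrane, a list of 20 (Abcc9, the Dpp6 and Dpp10 subunits of A-type channels, Cntnap2 and Cntn2 at the axon and others), were read from the same fits. Of 18 tested over all D1Tom cells, 7 were higher and 11 lower in cKO, and of 15 in the GTE sort 2 were higher and 13 lower. None passed the adjusted threshold over all cells or in a type; Cntn2 in the D1Tom sort (log2 −0.55), and Dlg2 (log2 −1.10) in the GTE sort, were among those with an unadjusted p under 0.05.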

How the data were processed

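Cells of frontal isocortex were sorted and sequenced as droplet libraries of 3′ ends. The authors deposited for each sort 1 table of UMI counts, genes by cells, with a second table that names the library of each cell (unit other) and gives its total; totals matched in all 11494 and 11382 cells. The submitters' processing notes name Cell Ranger 2.1.1, UMI-tools 0.5.4, STAR 2.5.2b, Subread 1.6.2, SAMtools 1.6, FastQC 0.11.5 and bcl2fastq 2.17.1.14 and the builds mm10 and GRCm38.p6; strand use in counting is not given in the sources used here, so antisense overlaps cannot be told apart. Single values were not plain molecule counts (2s per 1 ran from 0.307 to 1.69 between libraries), so no counting interval is given.

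Cells with at least 500 counts (143 GTE cells fell under it) were clustered with scanpy 1.11.5 (2000 variable genes scaled within library, 30 components, 20 neighbours, Leiden resolution 1) without Kcn, partner, Foxp2, dopamine receptor, sex-linked, stress, mitochondrial, ribosomal and haemoglobin genes. A cluster took the name of the marker list with most markers among its 10 leading genes, if at least 3 markers were 2-fold over the median of the other clusters and their median fold was at least 2, or 3 with no marker among the leading genes. The general excitatory name was used where no other list passed, or where those that passed had no marker among the leading genes. It was not given where another list had more markers among the leading genes. Red blood cell markers named no cluster, and a cluster led by Tshz2 was not named layer 5 pyramidal tract. The automatic doublet threshold marked 0 to 6 cells a library and had not worked, so an alternative removed the highest scores (0.8% per 1000 cells).

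Counts were summed per library, or per library and type, and fitted with edgeR 4.0.16 (TMM, quasi-likelihood, Benjamini-Hochberg over all genes tested, threshold 0.05) in R 4.3.3; DESeq2 1.42.0 was an alternative. The scripts were first tested on simulated data. The p-values measure the spread between the 2 libraries of a group, 1 of them of the other sex in the cKO groups. D1Tom libraries of 1 number share a preparation day per the labels, and their deviations correlated at 0.534 over 13816 genes, so the replicate block pairs them. Genes were named by rule: those passing a threshold, the 5 smallest p per sort, the 2 smallest per type, a 2-fold lead of 1 type, and 36 fixed by role. The members and lists were chosen with earlier results of these data known. Some genes that this rule names are not reported here.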

Additional observations from a re-analysis of the deposited data

How the results depend on the processing

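Depth limits the GTE sort, where 57 of 81 members were tested and 31 had levels by type. Over all cells of either sort and for the interaction, no alternative called a Kcn gene: DESeq2, no filter on low counts, the replicate block and each library left out (range 0 to 0), and, for the sorts only, library totals, fewer doublets and deeper cells. By type, the replicate block gave 1 Kcn call in the D1Tom sort (Kcnj10 in medial interneuron-like cells) and 0 in the GTE sort. Leaving out 1 library gave 0 to 16 calls in D1Tom types, with 1 without cKO 1 and 16 without control 2, 10 of them among astrocyte-like cells, a type whose clusters 0 and 4 differ in their share by batch. It gave 0 to 5 calls in GTE types, 5 without cKO 2. In each type where leaving out 1 library called a Kcn gene, other genes were called as well, and more of them than in the main fit. The calls were thus not particular to the Kcn genes. The lone library of a group was assumed to vary like the other group, so no conclusion is drawn from these calls. Their cause was not tested.

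The Kcnd2 difference in GTE unnamed cluster 0 reversed to −0.29 without cKO 1 and was 2.27 without cKO 2. Over 52 named differences and 410 alternatives, 403 kept direction and side of the threshold and 6 passed it. The 2-fold lead, seen in 11 D1Tom members, was seen in 11 with means over cells, of which 8 were shared with the main setting. At Leiden resolution 0.5 it was seen in 15, of which 8 were shared. Medial interneuron-like cells were left out there, with 25 and 3 cells of cKO 2 in clusters 14 and 17. It was seen in 11 with fewer doublets, and in 7 to 14 with 1 control left out, 7 without control 1. This last alternative was chosen after seeing the data. In the GTE sort the 6 became 4 to 6, and 7 and 8 with 1 control left out. The GTE numbers were not taken as pairs, since the batch text there has sexes that do not match: deviations of like numbers correlated at −0.323, and the block there left 0 Kcn calls.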

Other observations

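The unnamed cluster 19 of the D1Tom sort, with 25 to 73 cells a library and therefore left out of the ordering of types, had higher control means than each of the 11 larger types for Kcnk2 (253 CPM ± 57.5, SD, n = 2), Kcnmb4 (206 ± 16.1) and Kcnab1 (99.5 ± 24.2). Kcna5 had 21.0 CPM there as a control mean, against 6.78 CPM in medial interneuron-like cells. Kcnj12 was the one member whose cKO libraries lay below both controls in one sort (4.62 and 3.09 against 2.78 and 2.27 CPM, D1Tom) and above both in the other (0.821 and 0.820 against 4.73 and 1.06 CPM, GTE, 39 counts in all); the interaction of Kcnj12 had an edgeR adjusted p of 0.941.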
